A study of Arabidopsis thaliana with 36 samples.

Results

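MYB50 knockout xylem was set against Col-0 (wild-type) xylem on Affymetrix ATH1 arrays of Arabidopsis thaliana. The 6 arrays were chosen by their titles and tissue labels, 3 of MYB50 knockout xylem and 3 of Col-0 xylem, out of 36 arrays in 12 groups of 3. The series concerns dormancy and secondary growth, and its other groups include cork of the same genotypes, xylem and cork of a MYB61 knockout, and hypocotyls of hormone mutants. Per the labels, plants grew on compost at 22 °C under 24 h of light, and each RNA sample came from a pool of 200 to 400 plants. The labels give neither the allele of the MYB50 line nor the number of lines, nor plant age, so a change is one of this line against Col-0. No probe set named MYB50 or MYB61, so the knockout was not checked by the level of its own gene.

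MYB50 and MYB61 encode related transcription factors of the plant MYB family. MYB61 is known for roles in xylem formation, lateral roots and stomatal closure, and less is known of MYB50. Xylem is the water-conducting and supporting tissue that the vascular cambium lays down, and its cells add a secondary wall of cellulose, xylan and lignin inside the primary wall. Xylan, a chain of xylose units, carries acetyl groups and binds to cellulose, whose fibrils are laid down along microtubules. The primary wall of a growing cell also holds pectin and xyloglucan, which expansins, endoglucanases and other secreted proteins loosen or reshape.

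Values are deposited intensities on a linear scale, with every array scaled to the same trimmed mean of 100.01, and intensities under 16 lie near the background. Differences are MYB50 knockout minus Col-0 in log2 of the intensity plus 16, with a standard error (SE), and "called" means an adjusted p under 0.05 in limma over 15924 probe sets. Between 29.6% and 33.4% of probe sets were under 16 on the MYB50 knockout xylem arrays, against 35% to 36.3% on the Col-0 xylem arrays. The 25S ribosomal RNA control read 712.0, 256.1 and 192.4 in MYB50 knockout xylem and 769.8, 1038.8 and 1927.6 in Col-0 xylem, so those groups did not overlap in it, and its part in the results was not tested. Arrays correlated at 0.977 to 0.989 within MYB50 knockout xylem, at 0.979 to 0.986 within Col-0 xylem, and at 0.892 to 0.934 between them. MYB50 knockout replicate 2 and Col-0 replicate 3 stood somewhat apart from the other replicates, as the values below show.

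The tissue label was checked in Col-0 against marker genes of xylem, phloem, cambium and cork. The xylan synthesis gene GUT2 was higher in Col-0 xylem than in Col-0 cork (log2 difference 0.95, SE 0.16, adjusted p = 9.3e-06), as was HCT, a lignin pathway gene (log2 difference 0.80), and IRX15 differed by 0.78 (adjusted p = 0.0451). The phloem-made peptide gene CLE41 was lower in xylem (-3.08), and so were FACT, a suberin wax gene (-1.93), and SWEET11, a phloem sucrose exporter (-1.12). Of the 2 tested cambium markers, PHV, a transcription factor gene active in cambium and young xylem, was higher in xylem (2.47), and MOL1, a receptor kinase gene that restrains the cambium, was lower (-0.83). By list, 3 of 4 xylan genes were called higher in Col-0 xylem than in Col-0 cork, 3 of 4 phloem markers lower and the 1 cork marker lower, where 19.8% of all tested probe sets were called higher and 20.4% lower. Genes of secondary wall cellulose synthases and of xylem cell death were not among the probe sets named here. The xylan, phloem and cork markers that were called in Col-0 followed the tissue labels, and the cambium markers went both ways. Among the xylan genes the margin was weak for IRX15 and for GUT1 (0.22, adjusted p = 0.0386 by limma). IRX15-L was not called (0.41, adjusted p = 0.0962).

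In MYB50 knockout xylem 7109 of 15924 probe sets were called, 44.6% of those tested, with 3249 higher (20.4%) and 3860 lower (24.2%). Changes of at least 1 on the log2 scale were unevenly split: 871 probe sets were higher by that much (5.47%) and 280 lower (1.76%). The median difference over all tested probe sets was -0.02. Of the 871, 158 had a Col-0 mean under 16, whose differences are damped by the added 16, and their median level was 173 in MYB50 knockout xylem and 43.5 in Col-0 xylem. For the 280, the median level was 74.8 in MYB50 knockout xylem and 225 in Col-0 xylem. The arrays of the 2 genotypes did not overlap in 52.5% of all tested probe sets, so that property alone distinguishes no gene below. In these bulk samples, a change in the share of a cell type and a change in its RNA per cell cannot be told apart.

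**Figure D1:**
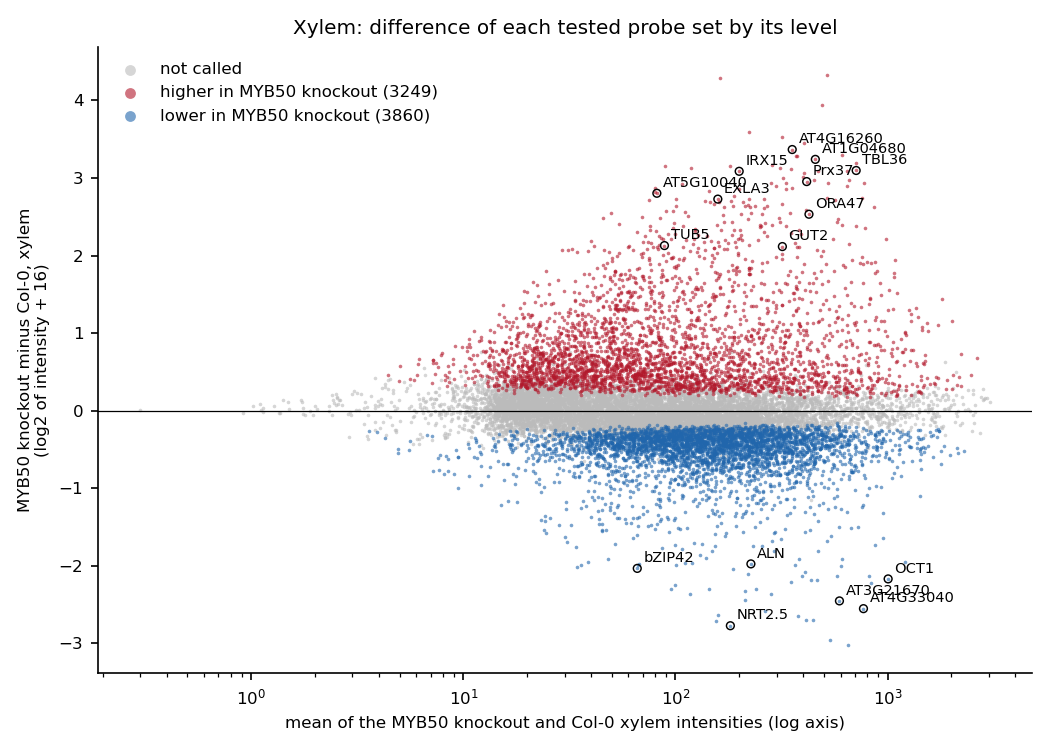
Each dot is 1 of 15924 tested probe sets, with the mean of the MYB50 knockout and Col-0 xylem intensities on a log axis and the log2 difference on the vertical axis. Dots are red where higher in the MYB50 knockout (3249), blue where lower (3860) and grey where not called. Large rises outnumber large falls, and 16 genes described in the text are circled.

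The xylan genes were among those with the largest rises. IRX15, a gene needed for normal xylan chains in secondary walls, read 414.2, 260.5 and 405.0 in MYB50 knockout xylem, against 5.6, 18.4 and 94.1 in Col-0 xylem (log2 difference 3.09, SE 0.31, adjusted p = 2e-09). All 3 knockout arrays lay above all 3 Col-0 arrays, and Col-0 replicate 1 was below the background level of 16. Its close relative IRX15-L read 473.4, 313.8 and 473.3 in the knockout and 38.8, 47.8 and 78.8 in Col-0 (2.63, SE 0.20, adjusted p = 4.7e-12). GUT2, which encodes a xylan glycosyltransferase, read 572.8, 422.3 and 580.8 in the knockout and 76.8, 96.6 and 165.1 in Col-0 (2.12, SE 0.16, adjusted p = 3.7e-12). The paralogue GUT1 did not pass the test: it read 173.8, 156.4 and 171.8 in the knockout and 174.7, 198.4 and 162.9 in Col-0 (-0.08, adjusted p = 0.447). So 3 of the 4 tested xylan genes were called, all higher, where 20.4% of all tested probe sets were called higher. In each of the 3 that rose, knockout replicate 2 was the lowest of its group and Col-0 replicate 3 the highest of its own. The same 3 were called when any 1 of the 6 arrays was left out.

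Acetylation of wall polysaccharides is the task of the TRICHOME BIREFRINGENCE-LIKE (TBL) family, and 8 of its 14 tested members rose while none fell. The median of the 14 was 0.58, beside -0.02 over all tested probe sets, of which 20.4% were called higher. TBL36 read 1321.5, 1093.2 and 1435.8 in MYB50 knockout xylem and 119.9, 110.6 and 184.1 in Col-0 xylem, a 9.29-fold ratio of the means (log2 difference 3.10, SE 0.20, adjusted p = 2.5e-13). TBL34, which encodes a xylan acetyltransferase, read 66.3, 55.7 and 63.4 in the knockout and 8.1, 10.8 and 22.3 in Col-0 (1.41, SE 0.13). The Col-0 level of TBL34 was near the background. TBL45 (1.52) and TBL37 (0.65) also rose.

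**Figure D2:**
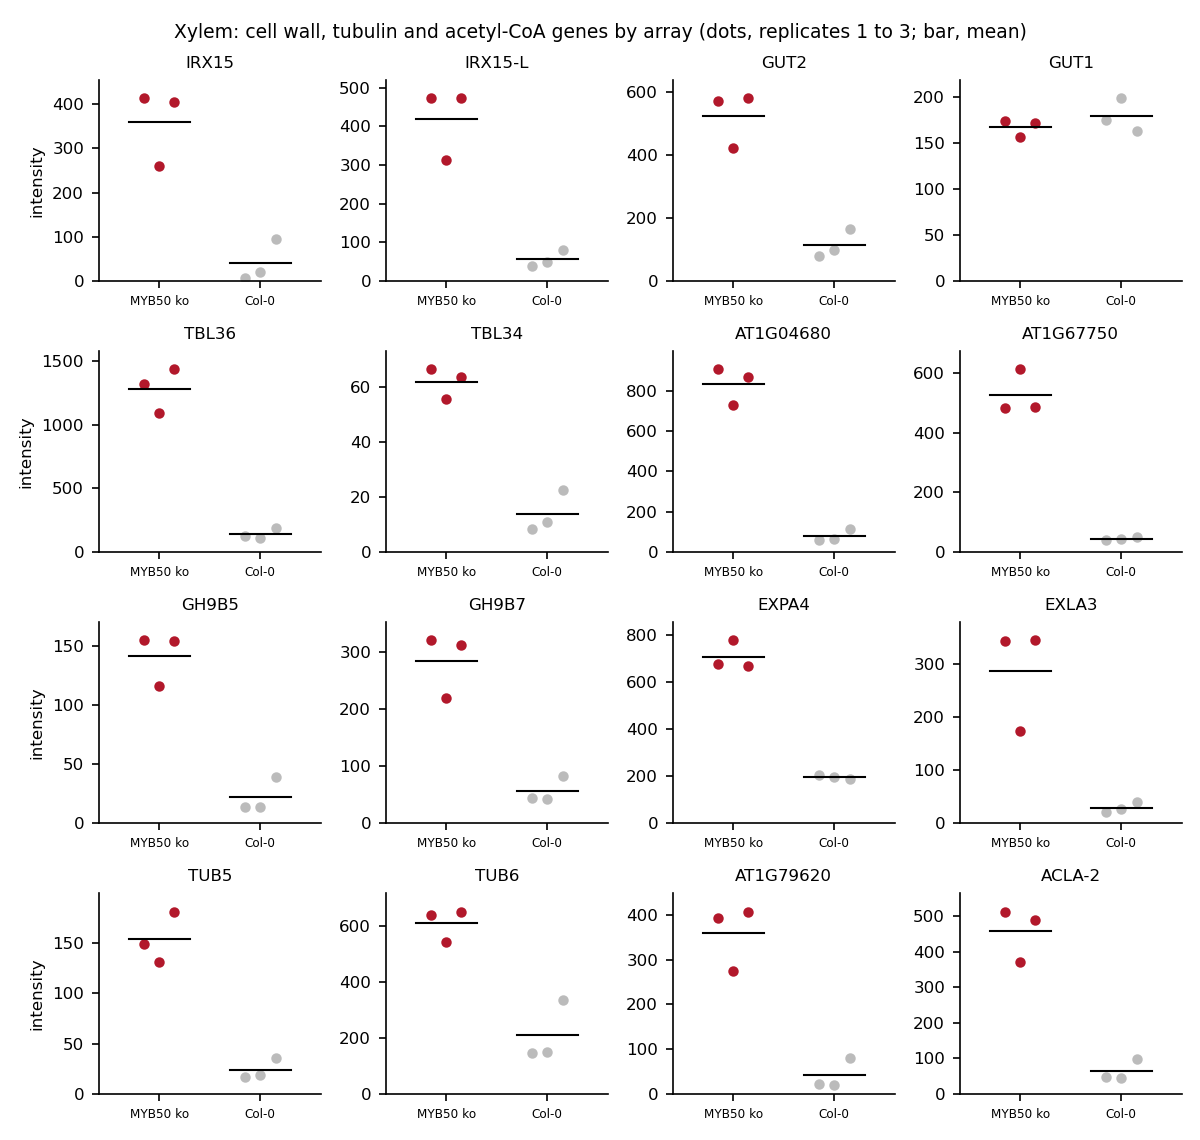
Intensity of 16 genes on each xylem array, with MYB50 knockout arrays (red) left of Col-0 arrays (grey), dots in the order of replicates 1 to 3 and a bar at the mean of 3. Each panel has its own linear axis from 0. All genes but GUT1 show every knockout array above every Col-0 array. Knockout replicate 2 is the lowest of its group for all genes but AT1G67750 and EXPA4, where it is the highest.

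Genes for proteins that cut or loosen wall polymers rose as well. AT1G04680 and AT1G67750, of the pectate lyase-like family that cleaves pectin, were among the largest rises in the comparison. AT1G04680 read 907.8, 729.8 and 869.5 in MYB50 knockout xylem and 56.5, 61.7 and 112.5 in Col-0 xylem (log2 difference 3.24, SE 0.16, adjusted p = 1.7e-15). AT1G67750 read 480.8, 612.1 and 484.4 in the knockout and 39.5, 43.7 and 49.3 in Col-0 (3.17, SE 0.16). Both were many times above Col-0 on every array. AT4G16260, of a family of enzymes that hydrolyse callose-type glucans, read 489.8, 978.7 and 519.1 in the knockout and 35.7, 62.3 and 44.6 in Col-0 (3.37, SE 0.36). It had the largest called difference among probe sets with 1 gene, and its replicate 2 was the highest.

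Of the GH9 endoglucanases, enzymes that act on cellulose-like glucans, 5 of 8 tested members rose and none fell, with a median of 0.86, where 20.4% of all tested probe sets were called higher. GH9B5 read 154.4, 115.7 and 153.6 in MYB50 knockout xylem and 13.4, 13.5 and 38.8 in Col-0 xylem (log2 difference 2.11, SE 0.17). GH9B7 read 320.3, 219.5 and 311.9 in the knockout and 44.3, 41.4 and 81.8 in Col-0 (2.09, SE 0.15). Expansins, which loosen walls without cutting them, rose in 5 of 9 tested members and fell in 1, with a median of 0.47, beside 20.4% of all tested probe sets called higher and 24.2% called lower. EXPA4 read 673.8, 775.4 and 667.2 in the knockout and 202.2, 194.9 and 184.9 in Col-0 (1.78, SE 0.15), and its groups were tight and far apart. EXLA3, of the expansin-like branch, read 344.3, 174.4 and 345.3 in the knockout and 20.7, 26.2 and 39.1 in Col-0 (2.73, SE 0.30), and EXLA1 (1.35) and EXPB3 (1.11) rose too. The member that fell was EXLB1 (-0.61, adjusted p = 0.0041).

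Xyloglucan genes were few. XTH32, a xyloglucan endotransglucosylase gene, read 65.5, 41.9 and 60.9 in MYB50 knockout xylem and 18.4, 16.3 and 18.1 in Col-0 xylem (log2 difference 1.09), and XTH18 rose by 1.23 with Col-0 values all under 16. CSLC04 and CSLC5, of the family that makes the xyloglucan backbone, rose by 1.47 and 0.72. They were the 2 calls among 5 tested cellulose synthase-like genes (40.0%). Over all tested probe sets 44.6% were called, 20.4% higher and 24.2% lower. COB, which encodes a protein that guides cellulose deposition in expanding cells, read 312.4, 286.1 and 306.9 in the knockout and 125.2, 109.2 and 125.3 in Col-0 (1.23, SE 0.10, adjusted p = 1.8e-11).

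Few lignin-related genes had a named probe set. HCT read 2085.2, 1838.0 and 1950.1 in MYB50 knockout xylem and 1235.8, 1382.5 and 1821.9 in Col-0 xylem (log2 difference 0.42, SE 0.12, adjusted p = 0.0071). The gap between the lowest knockout array and the highest Col-0 array was narrow, and without Col-0 replicate 1 the difference was 0.30 with adjusted p = 0.0766. BGLU46, which encodes a glucosidase of monolignol glucosides, read 703.2, 505.2 and 725.6 in the knockout and 275.5, 405.2 and 386.6 in Col-0 (0.83, SE 0.18). Prx37, a peroxidase gene of the secreted class, read 621.6, 857.2 and 759.2 in the knockout and 73.6, 121.3 and 59.5 in Col-0 (2.95, SE 0.41, adjusted p = 6.7e-07). BGLU44 rose by 1.31, and of the 11 tested beta-glucosidases 8 were higher and 1 was lower, beside 20.4% and 24.2% of all tested probe sets.

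Several genes of the cell surface and cytoskeleton went the same way. AT1G79620, a leucine-rich repeat receptor kinase gene, read 393.1, 275.3 and 407.1 in MYB50 knockout xylem and 22.6, 19.7 and 81.2 in Col-0 xylem (log2 difference 2.85, SE 0.22, adjusted p = 8.9e-12). AT1G72230, of the plantacyanin-like blue copper proteins, read 441.6, 445.7 and 479.5 in the knockout and 30.6, 32.5 and 141.3 in Col-0 (2.73, SE 0.28). In both, Col-0 replicate 3 was several times above the other Col-0 arrays and still below every knockout array. All 6 tested genes of RALF peptides, small secreted signals that bind receptor kinases and sense the state of the wall, rose, with a median of 0.94, where 20.4% of all tested probe sets did. RALFL24 read 87.8, 71.7 and 98.6 in the knockout and 23.1, 11 and 17.2 in Col-0 (1.63, SE 0.20), and RALFL34 rose by 1.11.

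Tubulins, the subunits of the microtubules that guide cellulose synthesis, rose in 5 of 6 tested genes with a median of 0.98, where 20.4% of all tested probe sets rose. TUB5 read 149.4, 131.1 and 181.4 in MYB50 knockout xylem and 16.4, 18.5 and 35.4 in Col-0 xylem (log2 difference 2.13, SE 0.17). TUB6 read 638.3, 539.7 and 649.5 in the knockout and 146.3, 149.4 and 334.4 in Col-0 (1.56, SE 0.17), and TUA6 rose by 1.14. Of 4 tested genes of LIM-domain actin-bundling proteins, WLIM2a (2.26) and WLIM1 (1.07) rose and PLIM2b fell (-0.52). Of 7 tested IQD genes, a family of calmodulin-binding scaffold proteins at microtubules, 4 rose, among them IQD31 (1.82) and IQD30 (1.58), and 2 fell, IQD22 (-0.92) and IQD24 (-0.98). Over all tested probe sets 20.4% were called higher and 24.2% lower, so the falls among LIM and IQD genes lay near the common share. PRA1.B4, of a family of membrane traffic proteins, read 200.3, 144.0 and 201.1 in the knockout and 8.0, 1.7 and 45.3 in Col-0 (2.72, SE 0.30). AT5G10210, whose product is not described here, rose by 3.02 with tight groups, 734.3, 723.7 and 711.2 in the knockout and 85.4, 65.7 and 75.8 in Col-0.

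Serine carboxypeptidase-like proteins are secreted or vacuolar enzymes, some of which transfer acyl groups, and 11 of the 17 tested members rose while none fell (median 0.57), against 20.4% of all tested probe sets called higher. The gene scpl30 rose by 2.16, scpl48 by 2.02 and SCPL45 by 1.97. SCPL45 read 238.9, 258.7 and 254.8 in MYB50 knockout xylem and 52.1, 52.7 and 51.2 in Col-0 xylem, with almost no spread within either group.

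Enzymes that make cytosolic acetyl-CoA, used for lipids and for acetylation, rose together. All 4 tested genes of ATP-citrate lyase, the enzyme that splits citrate to acetyl-CoA, were called higher, as were 20.4% of all tested probe sets. ACLA-2 read 513.2, 371.3 and 488.4 in MYB50 knockout xylem and 48.1, 45.2 and 99.6 in Col-0 xylem (log2 difference 2.61, SE 0.15, adjusted p = 2.4e-14). ACLA-1 rose by 1.44, ACLB-1 by 0.60 and ACLA-3 by 0.40. Apart from these, the cytosolic isocitrate dehydrogenase gene cICDH, of the tricarboxylic acid cycle list, rose by 1.03. That list was mixed, with 4 of 8 tested genes higher and 1 lower and a median of 0.23. Over all tested probe sets 20.4% were called higher and 24.2% lower. SWEET17, a vacuolar fructose transporter gene, read 584.7, 560.0 and 619.1 in the knockout and 210.0, 148.2 and 173.0 in Col-0 (1.66, SE 0.12). It was the 1 call among the 11 tested genes listed as sugar transporters by their symbols.

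**Figure D3:**
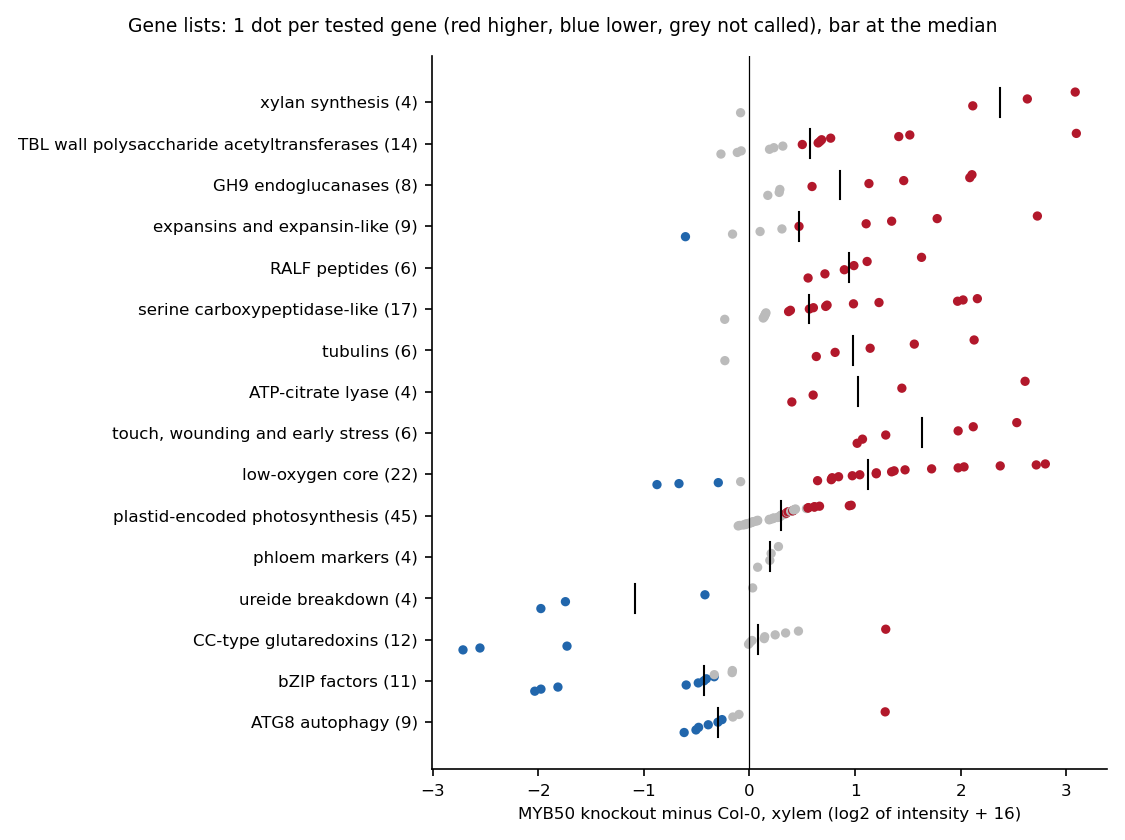
Log2 difference (MYB50 knockout minus Col-0, xylem) of every tested gene of 16 lists, with the number tested in brackets. Red dots were called higher, blue dots lower and grey dots were not called, and the bar is the list's median. Wall, tubulin, ATP-citrate lyase and early stress genes lie mostly to the right, and bZIP genes, ALN and AAH to the left. The ureide list also holds TTL, which was matched by symbol alone and is not a ureide gene.

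Genes that respond quickly to touch, wounding and other stress were higher in MYB50 knockout xylem, in 6 of 6 tested members with a median of 1.63, where 20.4% of all tested probe sets were called higher. ORA47, which encodes a transcription factor of the jasmonate response, read 884.8, 425.2 and 917.7 in the knockout and 88.3, 123.4 and 115.8 in Col-0 (log2 difference 2.53, SE 0.27, adjusted p = 7e-09). CML38, a calmodulin-like gene, read 696.7, 343.8 and 793.8 in the knockout and 140.8, 126.0 and 136.9 in Col-0 (1.98, SE 0.27). CML37, its relative, read 102.1, 26 and 107.9 in the knockout and 3.8, 6.9 and 0.5 in Col-0, all 3 under 16 (2.12, SE 0.35). In these genes knockout replicate 2 lay between Col-0 and the other knockout arrays. GRX480, a glutaredoxin gene of the salicylate and jasmonate responses, rose by 1.29, WRKY53, a transcription factor gene of senescence and defence, by 1.07, and STZ, a zinc finger gene of stress responses, by 1.02.

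Knockout replicate 2 was also the lowest of its group in other stress-linked genes. AT1G61890, of the MATE family of efflux carriers, read 759.6, 274.9 and 697.7 in MYB50 knockout xylem and 45.3, 45.6 and 47.4 in Col-0 xylem (log2 difference 3.13, SE 0.41, adjusted p = 2.5e-07). AT2G27080, of a family of membrane proteins induced in defence, read 759.5, 408.0 and 751.2 in the knockout and 61, 83.3 and 67.4 in Col-0 (2.88, SE 0.25). PUB22, a ubiquitin ligase gene that limits immune responses, rose by 1.37. The dehydrin gene COR47 read 329.1, 159.1 and 352.1 in the knockout and 129.6, 80.8 and 91.9 in Col-0 (1.29, SE 0.20). LTI30, another dehydrin gene, was called (1.84, SE 0.39, adjusted p = 0.00029) although its groups overlapped, with 414.9, 176.5 and 441.0 in the knockout and 213.5, 45.9 and 42.3 in Col-0. Replicate 2 of the knockout was the lowest of its group in 74.3% of the 871 probe sets that were higher by at least 1, against 31.9% of all tested probe sets. Without that array 6868 probe sets were called in all, and all 6 early stress genes were still called higher.

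Of 27 genes listed for nitrate transport and assimilation, only 2 had a named probe set, NRT2.5 and AT3G21670. Both were among the largest falls, where 24.2% of all tested probe sets were called lower. NRT2.5, which encodes a high-affinity nitrate transporter known from nitrogen-starved plants, read 42.1, 20.2 and 41.4 in MYB50 knockout xylem and 411.5, 325.5 and 247.8 in Col-0 xylem (log2 difference -2.77, SE 0.18, adjusted p = 2.9e-13). AT3G21670, of the nitrate and peptide transporter family, read 188.2, 125.7 and 211.0 in the knockout and 1056.1, 1043.4 and 932.5 in Col-0 (-2.45, SE 0.14). AT2G26690, of the same family, read 58.5, 68.6 and 39.8 in the knockout and 326.0, 411.5 and 370.4 in Col-0 (-2.44, SE 0.26). In all 3 the knockout was far below Col-0 on every array. AT4G33040 and AT3G62960 encode glutaredoxins of a small redox protein class found in land plants, and AT4G33040 read 211.2, 232.1 and 196.0 in the knockout and 1372.9, 1276.5 and 1327.7 in Col-0 (-2.55, SE 0.09, adjusted p = 9.1e-19). AT3G62960 read 28.6, 21.9 and 30.3 in the knockout and 243.7, 173.5 and 432.4 in Col-0 (-2.71, SE 0.26).

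Other genes with large falls had varied roles. OCT1, of the organic cation and carnitine transporter family, read 288.4, 468.0 and 328.7 in MYB50 knockout xylem and 1664.5, 1673.2 and 1611.1 in Col-0 xylem (log2 difference -2.17, SE 0.26). AT5G38710, a proline dehydrogenase gene, read 257.0, 214.7 and 219.0 in the knockout and 945.4, 1063.0 and 912.8 in Col-0 (-2.01, SE 0.13, adjusted p = 1.9e-13). CYP71B23, a cytochrome P450 gene, fell by 2.31 on the log2 scale, AT5G59050 by 2.58, AT1G64590 by 2.36, AT4G31330 by 2.32, AT1G80130 by 2.24 and AT1G11700 by 2.11. For AT1G80130 the Col-0 arrays were spread, at 281.5, 177.1 and 75.4, against 25.3, 19.3 and 18 in the knockout.

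Of 11 tested bZIP transcription factor genes, 8 fell and none rose, with a median of -0.43, where 24.2% of all tested probe sets were called lower. The large falls were bZIP42 (log2 difference -2.03, SE 0.16), bZIP48 (-1.97, SE 0.15) and bZIP44 (-1.81, SE 0.15), and the others that fell lay between -0.33 and -0.60. The gene bZIP42 read 24.1, 12.7 and 12 in MYB50 knockout xylem and 103.7, 139.0 and 104.4 in Col-0 xylem, so its knockout level was about at the background. HAT2, an auxin-induced homeodomain gene, read 99.1, 128.7 and 97.7 in the knockout and 414.2, 365.5 and 422.9 in Col-0 (-1.75, SE 0.24). The auxin-conjugating enzyme gene WES1 was near the threshold (-0.57, adjusted p = 0.0428) and lost its call under 12 of 18 other settings. Of 9 tested ATG8 genes, whose small proteins build autophagy membranes, 6 fell and 1 rose, beside 24.2% and 20.4% of all tested probe sets: APG8H fell by 0.62 on the log2 scale and ATG8H rose by 1.29. PHV fell, with 462.5, 480.9 and 465.9 in the knockout and 720.5, 640.9 and 670.4 in Col-0 (-0.51, SE 0.10).

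Of the 4 tested phloem markers none was called by limma between the 2 xylem groups (1 had an unadjusted p under 0.05), with differences between 0.08 and 0.27, and their summed level was 117.7 to 137.2 in MYB50 knockout xylem against 102.2 to 110.4 in Col-0 xylem. CLE41 read 34.5, 37.0 and 32.1 in the knockout and 33.9, 21.8 and 28.5 in Col-0, and was at 965.5 in knockout cork and 353.5 in Col-0 cork. FACT read 20.3, 16.7 and 20.4 in the knockout and 21.4, 13.8 and 19.3 in Col-0. Of the 10 tested nuclear photosynthesis genes 2 were called higher, and their summed level was 1211 to 1341 in the knockout and 914 to 1457 in Col-0. Of 45 plastid-encoded photosynthesis genes, 12 were called higher and none lower, with a median of 0.30. Both shares called higher lay near the 20.4% of all tested probe sets. Neither list had a member called lower, where 24.2% of all tested probe sets were, and the median over all tested probe sets was -0.02. The count of plastid genes rested on single arrays: it was 21 without Col-0 replicate 3 and 3 without Col-0 replicate 2 or without knockout replicate 3, 4 without Col-0 replicate 1 and 7 without knockout replicate 1. The gene psbA read 258.5, 153.0 and 271.9 in the knockout and 66.4, 69.4 and 249.4 in Col-0, so its groups overlapped (log2 difference 0.95, adjusted p = 0.0155).

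The same knockout was compared with Col-0 in cork, which shares no array with the xylem comparison, and the difference of the 2 effects was tested as a contrast of its own. In cork 6715 probe sets were called (42.2%), with 21.3% of those tested higher and 20.9% lower, and the xylem and cork effects differed for 2896 probe sets (18.2%), 1390 more positive in xylem (8.73%) and 1506 more negative (9.46%). Of the 871 probe sets higher by at least 1 in xylem, 532 were called higher in cork, which is 61.1% of the 871 and 15.7% of all those called higher in cork. Of the 280 lower by at least 1, 214 were called lower in cork, which is 76.4% of the 280 and 6.43% of those called lower in cork. One of the 3 knockout cork arrays carries the word repeat in its title.

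Genes fell into several patterns across the tissues. IRX15 was not called in cork (log2 difference 0.14, adjusted p = 0.744), where it averaged 12 in MYB50 knockout cork and 9.43 in Col-0 cork, both under 16, and the difference of effects was 2.94 (SE 0.44, adjusted p = 1.3e-05). The effects of AT1G79620 (difference 2.5, SE 0.31), GH9B5 (2.02, SE 0.24), scpl48 (2.07) and ACLA-2 (1.92) were also more positive in xylem. The early stress genes ORA47 (1.69), CML38 (1.61), CML37 (2.14), GRX480 (1.75) and WRKY53 (1.26) had larger effects in xylem too, and 1 of the 6 tested was called in cork. By contrast TBL36 (difference -0.27, adjusted p = 0.565), AT1G04680 (0.03) and AT1G67750 (0.01) had effects whose difference was not called, with log2 rises of 3.36, 3.21 and 3.16 in cork. EXPB3 rose more in cork, with 1154.0, 1023.5 and 1063.1 in knockout cork and 158.4, 143.3 and 168.7 in Col-0 cork (difference -1.56, SE 0.31).

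Among the falls, NRT2.5 was lower in both tissues (log2 difference -3.16 in cork, difference of effects 0.39, adjusted p = 0.324), and so were AT3G21670 (-2.97 in cork) and AT4G33040 (-2.49 in cork). AT2G26690 was not called in cork (0.04, adjusted p = 0.908), where it read 149.1, 159.5 and 162.9 in the knockout and 144.6, 164.5 and 146.9 in Col-0 (difference of effects -2.49, SE 0.36, adjusted p = 8.6e-06). AT5G38710 was similar, with -0.17 in cork and a difference of effects of -1.84 (SE 0.18). AT1G80130 fell more in cork, with 37.3, 26.5 and 26.1 in the knockout and 1157.6, 1002.7 and 861.8 in Col-0 (difference 2.23, SE 0.40). AT3G05400, of the sugar transporter family, went opposite ways: it rose in xylem (0.78, adjusted p = 0.00069), with 21.5, 22.5 and 22.1 in the knockout and 4.9, 3.3 and 11 in Col-0, and fell in cork by 1.79 on the log2 scale.

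**Figure D4:**
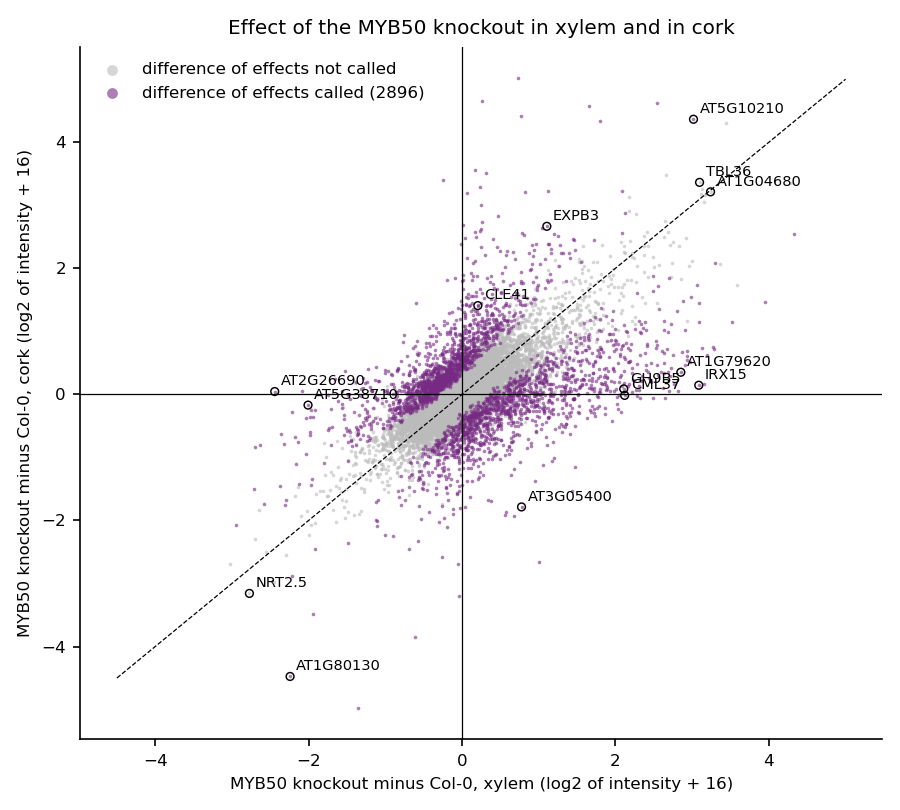
Effect of the MYB50 knockout (log2 difference from Col-0) in xylem on the horizontal axis and in cork on the vertical axis, for 15924 probe sets. Purple dots mark the 2896 whose effects differed between the tissues, grey dots the others, and the dashed line marks equal effects. TBL36 and AT1G04680 lie near the line, IRX15, GH9B5 and AT1G79620 near the horizontal axis, and AT1G80130 far below the line.

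MYB50 knockout xylem was also set against xylem of the MYB61 knockout, the other mutant of the pair. The 2 differed in 6195 probe sets (38.9%), 2910 higher in the MYB50 knockout (18.3%) and 3285 lower (20.6%). MYB61 knockout xylem against Col-0 xylem gave 299 calls (1.88%), and that comparison shares its Col-0 arrays with the MYB50 comparison. IRX15 averaged 359.9 in MYB50 knockout xylem, 22.4 in MYB61 knockout xylem and 39.4 in Col-0 xylem. NRT2.5 averaged 34.6 in MYB50 knockout xylem, 316 in MYB61 knockout xylem and 328 in Col-0 xylem, and AT4G33040 averaged 213, 1223 and 1326 in the same order of groups.

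Of the 6 early stress genes, 4 were called higher in MYB61 knockout xylem too, against 1.22% of all tested probe sets, and CML37 (log2 difference 1.08, adjusted p = 0.134) and WRKY53 (0.33, adjusted p = 0.578) were not. ORA47 read 884.8, 425.2 and 917.7 in MYB50 knockout xylem, 544.4, 729.0 and 408.8 in MYB61 knockout xylem, and 88.3, 123.4 and 115.8 in Col-0 xylem. Within the list the difference between the mutants was not called for ORA47 (log2 difference 0.36, SE 0.27, adjusted p = 0.326), CML38 (0.28), GRX480 (0.17) or STZ (-0.11), and was called for CML37 (1.04, adjusted p = 0.0195) and WRKY53 (0.74, adjusted p = 0.0044). Outside it, the difference was not called for COR47 (0.04) and was called for AT1G61890 (1.43, SE 0.41, adjusted p = 0.0059) and AT2G27080 (0.92, SE 0.25). Both mutants were set against the same Col-0 xylem arrays. AT2G15560 was low in both mutants, with 29.9, 22.5 and 26.2 in MYB50 knockout xylem, 26.7, 31.8 and 26.1 in MYB61 knockout xylem, and 202.4, 146.4 and 273.9 in Col-0 xylem. Its difference between the mutants was not called (-0.07, SE 0.20, adjusted p = 0.825).

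**Figure D5:**
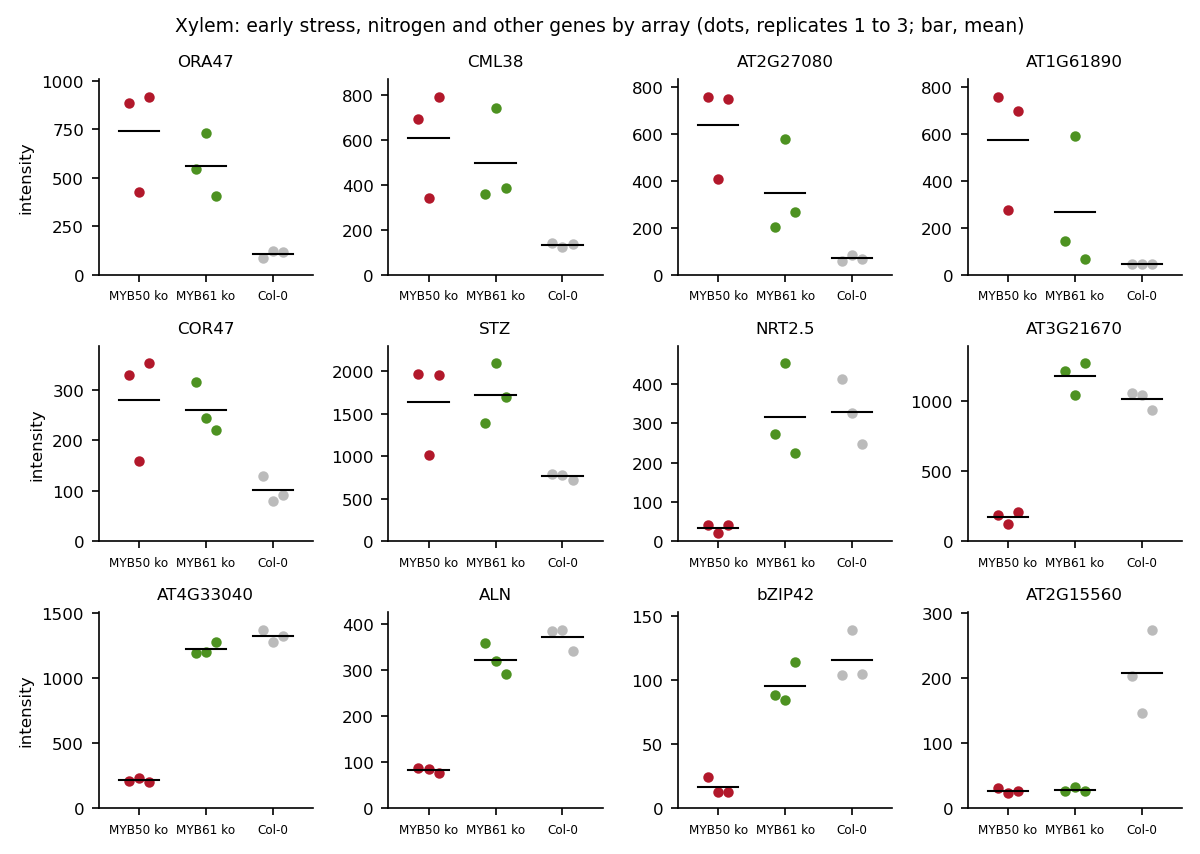
Intensity of 12 genes on each xylem array of the MYB50 knockout (red), the MYB61 knockout (green) and Col-0 (grey), with dots in the order of replicates 1 to 3, bars at the means and linear axes from 0. ORA47, CML38, AT2G27080, AT1G61890, COR47 and STZ are above Col-0 in both mutants. NRT2.5, AT3G21670, AT4G33040, ALN and bZIP42 are low in the MYB50 knockout, and AT2G15560 is low in both mutants.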

How the data were processed

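Per the labels, total RNA was labelled with biotin from an oligo-dT primer and hybridised to 1 array per sample. The deposited values are linear probe-set intensities, and the authors' scaling to a trimmed mean of 100.01 is inferred from the values. Which software summarised the probes was not given in the sources used here.

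Of 22810 probe sets, 64 controls were left out, and 15924 whose average over the 36 arrays reached the 30th percentile, 14.7, were tested. Of these 8857 had 1 gene in the probe table. A model of 12 group means was fitted to log2 of the intensity plus 16 with limma 3.58.1 (R 4.3.3, trended variance prior, 24 residual degrees of freedom), and two-sided contrasts were adjusted by Benjamini-Hochberg over the 15924. The labels do not say that replicates came from separate plantings, so p-values measure the spread between these samples, and the number of arrays limits the precision. In simulated data for the xylem comparison over 15924 probe sets it recovered 57.0% of changes of 0.5 and 95.0% of changes of 1 on the log2 scale, with 5.59% of its calls false. That simulation changed 200 probe sets and gave each value independent noise, with no effect shared across an array. In the data 7109 were called and some arrays stood apart, so these rates need not hold for the results above.

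Named genes were up to 15 rises and 15 falls, called with 1 gene and no overlap of groups, up to 4 called members of each of 45 lists (up to 2 of the largest where none was called), and up to 3 differences of effects each way. Others were chosen after their values were seen, among them AT1G56720, AT1G57590, ALN, AAH, bZIP44, bZIP48, scpl30, scpl48, WLIM2a, GRX480, STZ and the ATP-citrate lyase genes. The members and lists were chosen with earlier results of these data known. A further 24 lists were written from the probe table's symbols, and 4 (low-oxygen core, CC-type glutaredoxins, ureide breakdown and branched-chain amino acid breakdown) after values were seen. Of 220 genes listed by locus, 32 had a probe set. Promoter motifs were not analysed. Tables and plots used Python 3.11.15, numpy 2.4.6, pandas 2.3.3 and matplotlib 3.10.9. The alternatives were other pseudocounts and filters, quantile normalization, the replicate number as a block, array weights, scanner background as a covariate, robust moderation, fewer arrays in the fit and each array left out.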

Additional observations from a re-analysis of the deposited data

Results flagged for a closer look

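The effect of the MYB50 knockout differed between xylem and cork by its own limma contrast for 2896 probe sets. For the genes named here, the values below are the xylem effect minus the cork effect on the log2 scale, and each had an adjusted p under 0.05.

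Among wall genes the effect was more positive in xylem for IRX15 (2.94), IRX15-L (1.61), GUT2 (1.74), TBL34 (1.36), TBL37 (0.50), GH9B5 (2.02) and EXLA3 (1.62), and more negative for GH9B13 (-0.98), EXPB3 (-1.56) and CSLC5 (-0.40). At the cell surface and in the cytoskeleton it was more positive for AT1G79620 (2.5), scpl48 (2.07), scpl30 (1.65), SCPL45 (1.01), TUB6 (0.88), TUA6 (0.48) and IQD31 (0.45), and more negative for RALFL34 (-1.26). For metabolism it was more positive for ACLA-2 (1.92), ACLA-1 (0.90), ACLA-3 (0.30), SWEET17 (1.34) and AT3G05400 (2.56), whose effects had opposite signs in the 2 tissues.

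Among stress genes the effect was more positive in xylem for AT5G52050, of the MATE efflux family (2.7), AT1G61890 (2.4), CML37 (2.14), GRX480 (1.75), ORA47 (1.69), CML38 (1.61), AT5G10040 (1.48), AT2G27080 (1.40), COR47 (1.28), WRKY53 (1.26), PUB22 (1.03) and ATG8H (0.81). Knockout replicate 2 was the lowest of the knockout xylem arrays for every one of these stress genes. The plastid gene psbA (2.32) was higher in knockout xylem and lower in knockout cork than in Col-0.

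Among the falls the effect was more negative in xylem for AT2G26690 (-2.49), AT5G38710 (-1.84), bZIP48 (-1.72), AT1G64590 (-1.72), AT4G31330 (-1.54), AT3G62960 (-1.21), HAT2 (-1.18), bZIP42 (-1.09), OCT1 (-1.06), AT2G15560 (-0.91), AT5G59050 (-0.84), PHV (-0.78), ALN (-0.54), CYP71B23 (-0.54) and TTL (-0.48). AT1G80130 (2.23) fell further in cork, and AT5G10210 (-1.35) rose further in cork. Beside MYB50 in the gene order, AT1G56720 (2.25) and AT1G57590 (-1.48) differed. The tissue markers CLE41 (-1.20), FACT (-0.86), OPS (-0.62), MOL1 (-0.41) and SWEET11 (0.75) differed as well, with no call for any of them in xylem. CLE41 was called in cork (1.41), as was FACT (0.90). Whether the make-up of the cork samples bears on these differences was not tested.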

How the results depend on the processing

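The number of probe sets called between MYB50 knockout and Col-0 xylem lay between 5925, with a filter at the 50th percentile, and 7673, with array weights, and between 6112 and 6868 with any 1 of the 6 arrays left out. Differences of effects between xylem and cork lay between 2153, fitting the xylem and cork arrays alone, and 4104, with array weights, and calls between the MYB50 and MYB61 knockouts between 4876, fitting those 6 arrays alone, and 6667. Counts of changes of at least 1 depended on the pseudocount by its construction: with 1 there were 1360 higher and 467 lower, and with 64 there were 444 higher and 120 lower. The share of calls that were higher in the knockout ranged from 39.3% to 48.4% in the xylem comparison.

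The replicate numbers gave same-numbered arrays correlations of 0.14, 0.15 and 0.03 in their deviations from the group means, so they were not taken as pairs, although every array correlated best with its own number in the other genotype. With the replicate block 7084 probe sets were called in xylem, 2844 for the difference of effects and 6102 between the mutants.

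For the 107 genes named, the direction and side of the threshold held in 1878 of 1909 refits. WES1, psbA, HCT and TTL lost their call in some, psbA in 7 of 18 (for example 0.66, adjusted p = 0.129, without Col-0 replicate 1, and 1.5 without Col-0 replicate 3), and TTL without knockout replicate 3 (adjusted p = 0.0554). CLE41 and OPS gained one without a Col-0 array (0.30 without replicate 1 and 0.38 without replicate 2), and MOL1 without knockout replicate 3 (0.26, adjusted p = 0.0458). Signs turned in genes that were not called: SWEET11 (-0.030), FACT (-0.10) and UGLYAH (-0.11) under quantile normalization, UGLYAH with array weights (-0.018), and, with 1 array left out, FACT (-0.050 to 0.11, below 0 without Col-0 replicate 2) and UGLYAH (-0.074 to 0.12, below 0 without knockout replicate 1 or Col-0 replicate 3). The cause was not tested. Genes near an intensity of 16 lie close to the background, which limits their folds.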

Other observations

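Genes that plants induce at low oxygen were higher in MYB50 knockout xylem, on a list written after values were seen. Of 22 tested members 18 were higher and 3 lower, with a median of 1.12, where 20.4% of all tested probe sets were called higher. AT5G10040 read 172.2, 101.6 and 191.0 in MYB50 knockout xylem and 2.4, 6.9 and 16.0 in Col-0 xylem, and AT5G66985 averaged 141.6 ± 39.2 in the knockout and 7.63 ± 3.68 in Col-0 (SD, n = 3 each). Both were near the background in Col-0. AT4G33560 rose by 2.38 on the log2 scale, AT2G17850 by 2.03, AT4G10270 by 1.73 and PDC2, a pyruvate decarboxylase gene of ethanol fermentation, by 1.05 (SE 0.30, adjusted p = 0.0054). In cork 12 of the 22 were higher in the knockout and 3 lower, beside 21.3% and 20.9% of all tested probe sets. In MYB61 knockout xylem 3 of the 22 were higher than in Col-0 xylem, where 1.22% of all tested probe sets were called higher. CML38, counted among the early stress genes, is also on this list.

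ALN and AAH, genes for the breakdown of ureides, nitrogen-rich products of purines, were lower, on a list also written after values were seen. ALN, the allantoinase gene, read 87.6, 84.6 and 75.1 in MYB50 knockout xylem and 384.7, 386.9 and 341.6 in Col-0 xylem (log2 difference -1.98, SE 0.11, adjusted p = 6.9e-15). AAH, the next enzyme of the pathway, read 110.4, 85.6 and 98.9 in the knockout and 389.9, 365.1 and 341.7 in Col-0 (-1.74, SE 0.18). UGLYAH was not called (0.03). TTL, also on the list, differed by -0.42 (adjusted p = 0.0047), but it was matched by symbol alone. Its locus, AT4G24900, is not that of the ureide enzyme of that symbol, so TTL does not bear on this pathway. Of 12 tested CC-type glutaredoxins, 3 were lower, AT3G62960, AT4G33040 and AT5G11930 (-1.73), and 1 was higher, GRX480. In cork 7 of the 12 were higher and 4 lower, beside 21.3% and 20.9% of all tested probe sets. Of 8 tested genes of branched-chain amino acid breakdown 2 were lower and none higher. The lower counts of both lists lay near the 24.2% of all tested probe sets called lower.

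Among protein-coding genes beside MYB50 in the reference gene order, the nearest 3 tested on each side were examined. AT1G56720, a protein kinase gene, read 209.9, 166.2 and 217.8 in MYB50 knockout xylem and 8.5, 14.9 and 46 in Col-0 xylem (log2 difference 2.56, SE 0.20, adjusted p = 1.7e-11). AT1G57590, of the pectin acetylesterase family, read 43.9, 24.1 and 31.6 in the knockout and 103.9, 109.2 and 146.6 in Col-0 (-1.47, SE 0.22, adjusted p = 1.9e-06). AT1G57540 differed by -0.42, and AT1G57550, AT1G57600 and AT1G57620 were not called (0.40, -0.25 and 0.01). What sets these levels was not tested.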
